A study of Mus musculus with 18 samples.

Results

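The class 3 semaphorins Sema3a to Sema3g, their receptors Nrp1 and Nrp2, and Plxna1 were followed in NIH 3T3 mouse fibroblasts in which the LINC complex, the bridge between nucleus and cytoskeleton, was disrupted or actomyosin contraction was inhibited. The members are the 10 genes of the deposited expression table, which lists 22019, that carry these symbols. The family was selected on the measured signal of Sema3g. This signal was lower in SUN1L cells on 308 kPa and with both inhibitors than in KDEL cells on 308 kPa. These values of Sema3g are thus a description. Sema3g was part of the fits and of the counts of called members, but its p-values in these comparisons are not given.

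Class 3 semaphorins are secreted guidance cues, and most of them bind neuropilins on the cell surface. The plexin that sits beside the neuropilin carries the signal inward, where it loosens adhesion and reshapes the actin cytoskeleton. They were found as repellents of growing axons and also act on endothelial cells and fibroblasts. Neuropilins bind VEGF as well, and proprotein convertases of the furin family cut the semaphorins and set their activity.

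The 18 libraries formed 6 groups of 3, all from NIH 3T3 lines with a doxycycline-inducible transgene, all given 1 μg/ml doxycycline for 48 hr on hydrogel. KDEL cells expressed SS-GFP-KDEL, a fluorescent protein kept in the endoplasmic reticulum, and SUN1L cells expressed SS-HA-SUN1L-KDEL, the lumenal domain of SUN1 that displaces nesprins from the nuclear envelope. Both lines were grown on soft (1 kPa) and stiff (308 kPa) gels, and KDEL cells on 308 kPa were also given 25 μM Y27, which inhibits actomyosin contraction, or 10 μM blebbistatin, an inhibitor of myosin II, for 48 hr. Each construct was carried by its own transduced line and the KDEL line was enriched by sorting, so that line and construct cannot be told apart.

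Library 34 carries labels that conflict: it is called empty vector in 2 of them, and blebbistatin in one and Y27 in another. The table has no column of that number: its values were taken from the column numbered 35, whose other heading is the source name of library 34 and of no other. It was grouped with blebbistatin, and results that rest on it are given with and without it. Libraries 3 (SUN1L on 1 kPa), 7 (SUN1L on 308 kPa) and 8 (KDEL on 308 kPa) stood apart: their 12 mitosis genes averaged 8.62, 8.95 and 9.31 on the log2 scale, against 11.6 to 12.39 in the other 15 libraries. The libraries held an estimated 12670000 to 19460000 read pairs, and a value of the table, called signal here, is a normalized read count at 1.70 to 2.49 per read pair. In these bulk samples fewer cells of a type and less RNA per cell cannot be told apart, and since the labels do not tie libraries to cultures, p-values measure the spread between libraries. Sun1, of which the SUN1L construct holds a part, separated the lines as labelled, with a signal of 38452 to 82617 in the 6 SUN1L libraries and 2785 to 3799 in the 12 KDEL libraries. All 9 fibroblast markers were expressed (means of 3053 to 313660), while Epcam, Krt18, Krt19, Rbfox3 and Emr1 had means of 1.00 to 1.10 where the lowest value of the table is 1. Other markers of those lists were detected, with means of 179 for Cdh1 (epithelial), 155 for Cd68 and 94.4 for Csf1r (macrophage), 2.33 for Krt8 (epithelial) and 2.82 for Map2 (neuronal).

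Some of the members share a chromosome in the mouse genome (GRCm38, as in the deposited table). Sema3d, Sema3a, Sema3e and Sema3c lie in this order on chromosome 5, with gaps of 807.8, 422.7 and 3318 kb, and Sema3b and Sema3f lie 72.27 kb apart on chromosome 9. Sema3g is on chromosome 14 (chr14:31217860-31230350, plus strand), Nrp1 on chromosome 8, Nrp2 on chromosome 1 and Plxna1 on chromosome 6. RefSeq promoters (GRCm38.p6) were at hand for 7 of the 10 members, and those of Sema3b, Sema3f and Plxna1 were not used here. The 4 stretches printed next show the ligand that prompted the choice, an expressed ligand and both neuropilins. Each runs 5′ to 3′ and ends before the gene start of both RefSeq and the deposited table, and capitals mark GC boxes (GGGCGG or CCGCCC).
Sema3g, chr14:31217623-31217859, plus strand: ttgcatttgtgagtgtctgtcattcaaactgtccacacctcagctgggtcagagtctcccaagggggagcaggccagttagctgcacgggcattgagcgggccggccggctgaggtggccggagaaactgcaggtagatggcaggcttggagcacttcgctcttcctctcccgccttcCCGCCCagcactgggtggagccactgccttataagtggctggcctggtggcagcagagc
Sema3a, chr5:13396534-13396783, plus strand: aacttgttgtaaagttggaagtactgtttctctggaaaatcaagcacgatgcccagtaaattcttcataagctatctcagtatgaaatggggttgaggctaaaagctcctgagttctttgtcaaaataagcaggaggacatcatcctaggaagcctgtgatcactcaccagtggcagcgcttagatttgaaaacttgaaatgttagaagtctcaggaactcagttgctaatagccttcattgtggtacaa
Nrp1, chr8:128358823-128359072, plus strand: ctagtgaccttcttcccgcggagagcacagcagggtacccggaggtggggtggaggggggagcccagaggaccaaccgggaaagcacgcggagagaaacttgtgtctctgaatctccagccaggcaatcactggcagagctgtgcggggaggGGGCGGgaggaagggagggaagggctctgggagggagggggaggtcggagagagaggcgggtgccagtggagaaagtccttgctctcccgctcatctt
Nrp2, chr1:62703067-62703284, plus strand: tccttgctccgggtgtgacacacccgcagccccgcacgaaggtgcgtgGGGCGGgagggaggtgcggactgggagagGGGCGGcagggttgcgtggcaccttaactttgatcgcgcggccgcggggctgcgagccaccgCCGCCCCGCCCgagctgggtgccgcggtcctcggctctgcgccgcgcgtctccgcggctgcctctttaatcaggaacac
The Sema3g and Nrp1 stretches each hold 1 GC box, the Nrp2 stretch holds 4, of which 2 overlap, and the Sema3a stretch holds 0. Over the 250 bases before the RefSeq start, 5 of the 7 member promoters (Nrp1, Nrp2, Sema3c, Sema3e and Sema3g) held a GC box on either strand, as did 32.7% of all 32851 promoters of this length. G and C made up 40.8% of these bases in Sema3a, 60.4% in Sema3g, 64.4% in Nrp1 and 72.4% in Nrp2, beside a median of 52.4% in all promoters. The TATA box (TATAAA, 12.4% of all promoters), the TEAD motif (GGAATG, 12.6%), the AP-1 motif (TGACTCA, 4.46%) and the CArG box of serum response factor (1.47%), each searched on both strands, were in 0 of the 7.

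In these cells 7 members were expressed at a mean signal over 500, the lowest being Sema3b (534, percentile 48.5 of tested genes). The other 3 had a mean under 20. Of these, Sema3e and Sema3g were at or near the lowest value, while Sema3d was above it in every library. Levels were compared between genes as signal per kb of exon. Plxna1, a plexin that transduces class 3 signals, led the members with a mean of 1558 over the 18 libraries. The neuropilins Nrp2 (1130) and Nrp1 (1038) and the ligand Sema3f (940) followed. The ligands Sema3c (368), Sema3a (280) and Sema3b (126) came next, and then Sema3d (2.41), Sema3g (0.489) and Sema3e (0.249).

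**Figure D1:**
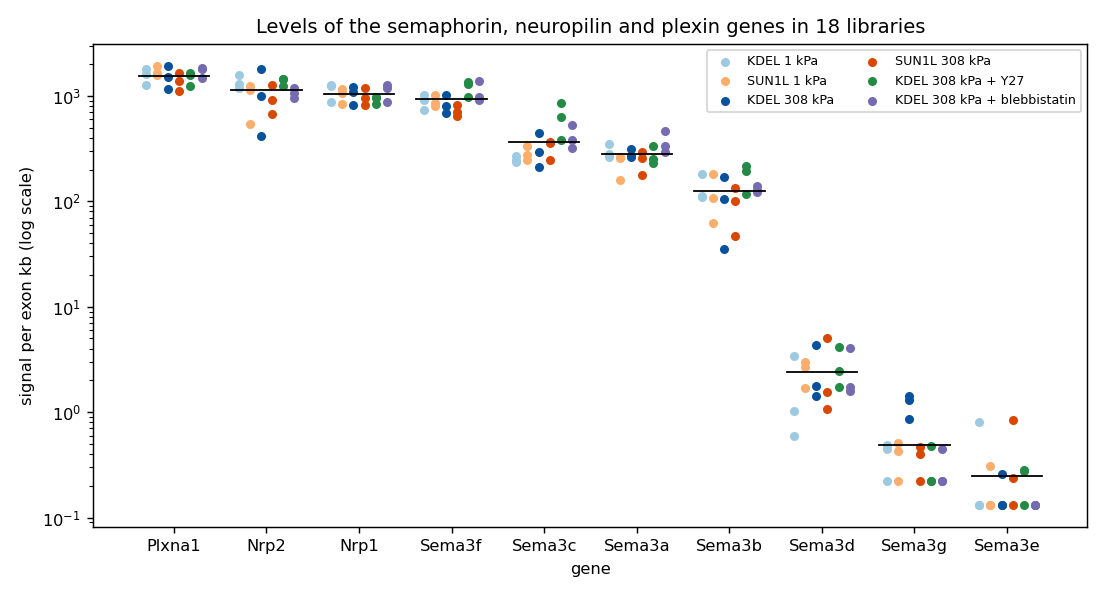
Signal per kb of exon (log scale) of the 10 genes, 1 point per library, coloured by group, with a line at the mean of the 18 libraries. The 7 expressed genes lie between 35.5 and 1922, and Sema3d, Sema3g and Sema3e lie at 5.01 or lower.

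Sema3f exceeded Sema3c, Sema3a exceeded Sema3b and Sema3b exceeded Sema3d in all 18 libraries. Plxna1 exceeded Nrp2 in 15 of 18 libraries, Nrp2 exceeded Nrp1 in 12, Nrp1 exceeded Sema3f in 13 and Sema3c exceeded Sema3a in 10, so these neighbours were not separated beyond their spread. Sema3g and Sema3e both rested on so few reads that they were not ordered. The median ratio of Sema3f to Sema3c, per kb, was 2.59.

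Sema3g, a ligand known mainly from blood vessels, was measured at 3 read pairs or fewer in every library. In KDEL cells on 308 kPa its signal was 6.49, 5.90 and 3.92 in the order of library number, an estimated 3, 3 and 2 read pairs. In SUN1L cells on 308 kPa it was 1.81, 1.00 and 2.14, with Y27 2.15, 1.00 and 1.00, and with blebbistatin 1.00, 2.02 and 1.00, the last of these in library 34. The untreated KDEL libraries on 308 kPa were thus above all libraries of these 3 groups, with or without library 34, and this is the pattern the gene was picked for. Groups apart in this direction made up 2.33% of all tested genes for SUN1L, 3.62% for Y27 and 3.55% for blebbistatin. On 1 kPa the signal was 1.00, 2.21 and 2.04 in KDEL cells and 2.33, 1.00 and 1.95 in SUN1L cells, and these groups overlapped.

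Summed over a group, Sema3g rested on 8 read pairs in KDEL cells on 308 kPa, with an exact Poisson 95% interval of 3.45 to 15.8 that covers counting error only. The sums were 2 (0.242 to 7.22) in each of SUN1L cells on 308 kPa, KDEL cells on 1 kPa and SUN1L cells on 1 kPa, and 1 (0.0253 to 5.57) with each inhibitor. The read pairs are estimates, and their sums were rounded to whole numbers for these intervals. Since Sema3g was selected on its values on 308 kPa, the intervals do not allow for that choice. They are no test of a difference between groups.

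**Figure D2:**
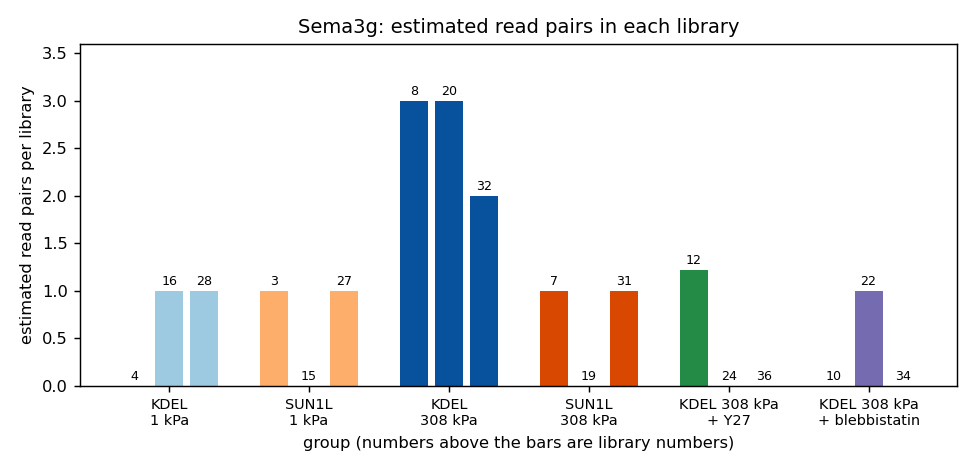
Estimated read pairs of Sema3g in each library, in 6 groups of 3, with library numbers above the bars. The KDEL libraries on 308 kPa hold 3, 3 and 2 read pairs, and no other library holds more than 1.22.

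The choice of Sema3g did not use SUN1L against KDEL on 1 kPa. There the log2 difference was 0.00 ± 0.31 (SE), with a 95% interval of -0.68 to 0.69. Over the 18 libraries the genes whose log2 values followed Sema3g most closely, among 8010 tested genes above the median level, were Btrc (Pearson r = 0.80), Rit1 (0.80) and Tceb3 (0.77). These correlations are descriptive, since Sema3g takes few distinct values and 7 of its 18 libraries are at the lowest value.

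Of the other ligands with a mean under 20, Sema3e rested on 11 read pairs over all libraries, and 11 of its 18 libraries were at the lowest value. Sema3d had a signal of 4.08 to 34.7, from about 152 read pairs in all. Its largest signals in each group on 308 kPa were 30.3, 34.7, 28.9 and 28.4 (KDEL, SUN1L, Y27 and blebbistatin, all in the run of libraries 3 to 12). No comparison of either gene was resolved: the 95% interval of the Sema3d difference between SUN1L and KDEL cells on 1 kPa ran from -0.71 to 2.32 on the log2 scale, around 0.80.

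Among the expressed ligands, the largest log2 differences of the 8 comparisons were those of Sema3b and Sema3c with Y27, and neither passed the test. Sema3c, a ligand for both neuropilins, had a signal of 3171, 1517 and 2103 in untreated KDEL cells on 308 kPa and 6066, 4497 and 2720 with Y27. The groups overlapped only in that the lowest treated library was below the highest untreated library. The log2 difference was 0.96 ± 0.36 (SE, n = 3 libraries a group, 95% interval 0.12 to 1.80), with an unadjusted limma p of 0.0304 and an adjusted p of 0.783. The library numbers fall into 3 runs that hold every group once, starting at 3, 15 and 27, and within them the ratio of treated to untreated was 1.91, 2.96 and 1.29. Without library 8 the log2 difference was 1.23 for Sema3c and 0.69 for Sema3f, described next.

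Sema3f, a ligand that prefers Nrp2, had 3570, 2771 and 2415 without inhibitor and 4510, 4685 and 3431 with Y27, and the lowest treated library was again below the highest untreated one. Its log2 difference was 0.53 ± 0.21 (SE, 95% interval 0.05 to 1.02), with an unadjusted p of 0.0344 and an adjusted p of 0.789 in limma. The ratio exceeded 1 within each run, at 1.26, 1.69 and 1.42. Sema3b, also a secreted ligand, had 151, 716 and 446 without inhibitor and 496, 922 and 820 with Y27, a log2 difference of 0.99 ± 0.52 (SE, 95% interval -0.22 to 2.19).

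In this comparison 0 of the 10 members was called (at least 2-fold, with a limma p under 0.05 after Benjamini-Hochberg adjustment), and 0% of all 16021 tested genes were. At an unadjusted p under 0.05, 2 of the 9 members other than Sema3g lay above the untreated group, and 6.05% of all tested genes passed in either direction. The median log2 difference was 0.24 over these 9 members and 0.01 over all tested genes. With a block on the runs, the p of Sema3c was 0.00541 and that of Sema3f 0.00296 before adjustment (10.5% of all genes passed 0.05 in that fit), and both adjusted p-values were 0.379. Sema3b had an unadjusted limma p of 0.0431 and an adjusted p of 0.462 in the same fit.

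**Figure D3:**
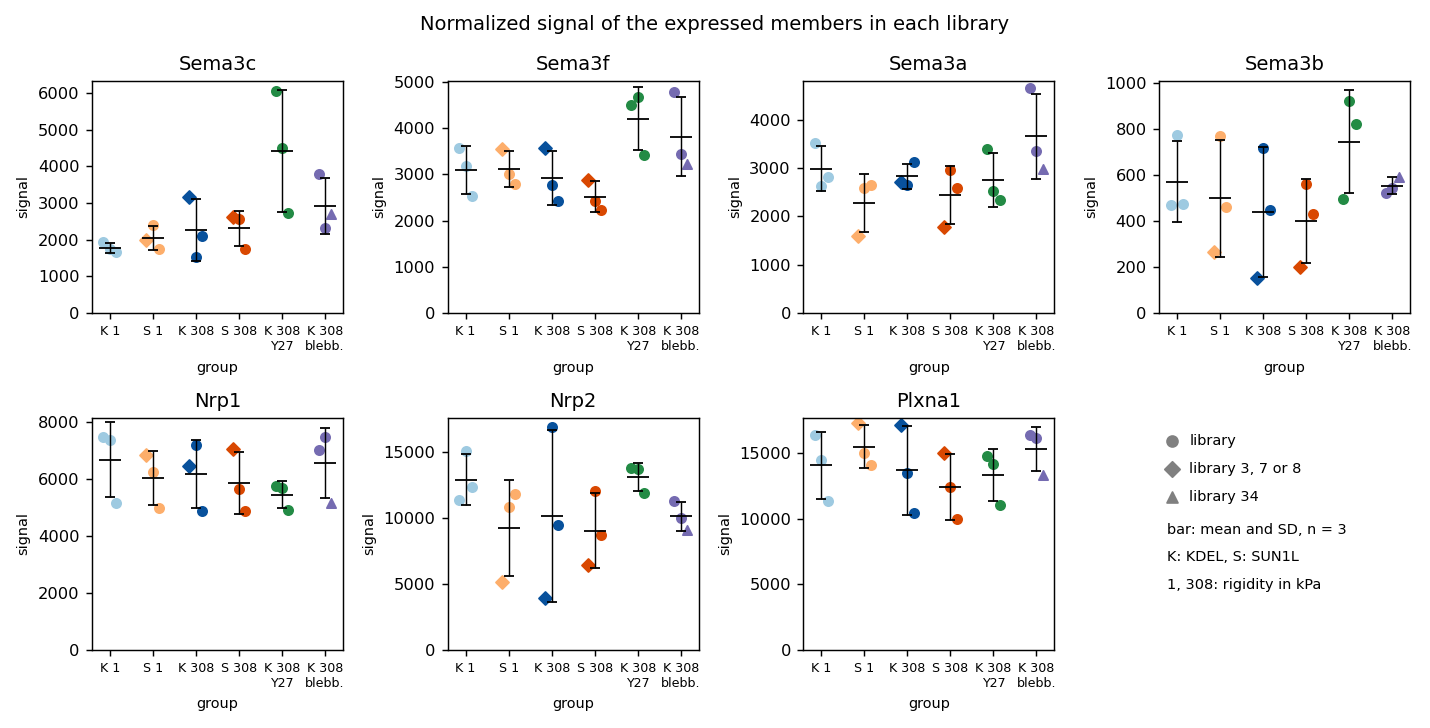
Normalized signal (linear scale from 0) of the 7 expressed members in each library, by group, with mean and SD of 3 libraries. Sema3c reaches 6066 with Y27, and the diamonds of libraries 3, 7 and 8 lie lowest for Nrp2 and Sema3b.

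The receptors Nrp1 and Plxna1 differed less with Y27. Nrp1 had 6471, 7185 and 4866 without inhibitor and 5764, 5690 and 4904 with it, and Plxna1 had 17137, 13493 and 10416 against 14800, 14205 and 11079. Both pairs of groups overlapped, and the 95% intervals of the log2 difference were -0.60 to 0.27 around -0.16 for Nrp1 and -0.48 to 0.45 around -0.02 for Plxna1. The ligand Sema3a, the classical collapse-inducing semaphorin, had an interval of -0.51 to 0.41 around -0.05. Nrp2 had 3935, 16922 and 9453 without inhibitor and 13737, 13662 and 11899 with it, a log2 difference of 0.61 ± 0.45 (SE). That difference rested on library 8, the one with few mitosis transcripts: without it the log2 difference was 0.05, and that of Sema3b was 0.35. The part of the mitosis genes in these differences was not tested.

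With blebbistatin the group means of Sema3f, Sema3c, Sema3b and Sema3a were above those of the untreated libraries, and no difference passed the test. These comparisons use the same 3 untreated KDEL libraries as those with Y27 and with SUN1L on 308 kPa, so the 3 sets of values are not independent. Sema3f had 4795, 3436 and 3217, a log2 difference of 0.38 ± 0.21 (SE, 95% interval -0.10 to 0.87), and 0.49 without library 34. The unadjusted limma p was 0.105 and the adjusted p 0.890, and within runs the ratio to untreated was 1.34, 1.24 and 1.33. Sema3c had 3781, 2308 and 2696, a log2 difference of 0.41 ± 0.36 (SE), or 0.45 without library 34. Sema3a had 4660, 3359 and 2978 against 2726, 2644 and 3131, a log2 difference of 0.35 ± 0.20 (SE), or 0.49 without library 34.

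With all 3 libraries, the differences of the receptors were smaller than their standard errors. The log2 difference with blebbistatin was 0.09 for Nrp1 (95% interval -0.34 to 0.52), 0.19 for Plxna1 (-0.28 to 0.65) and 0.23 for Nrp2 (-0.81 to 1.27). Without library 34 these became 0.25, 0.28 and 0.31. For Sema3b it was 0.60 ± 0.52 (SE), and 0.55 without library 34, but -0.03 without library 8, and for Nrp2 the value without library 8 was -0.33. Again 0 of the 10 members was called, as were 0% of all tested genes, and 0 of the 9 members other than Sema3g had an unadjusted p under 0.05 (4.21% of all genes did, and 3.04% without library 34). With the block on runs, Sema3f had an unadjusted limma p of 0.0134 and an adjusted p of 0.612, and 7.57% of all genes were under 0.05.

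**Figure D4:**
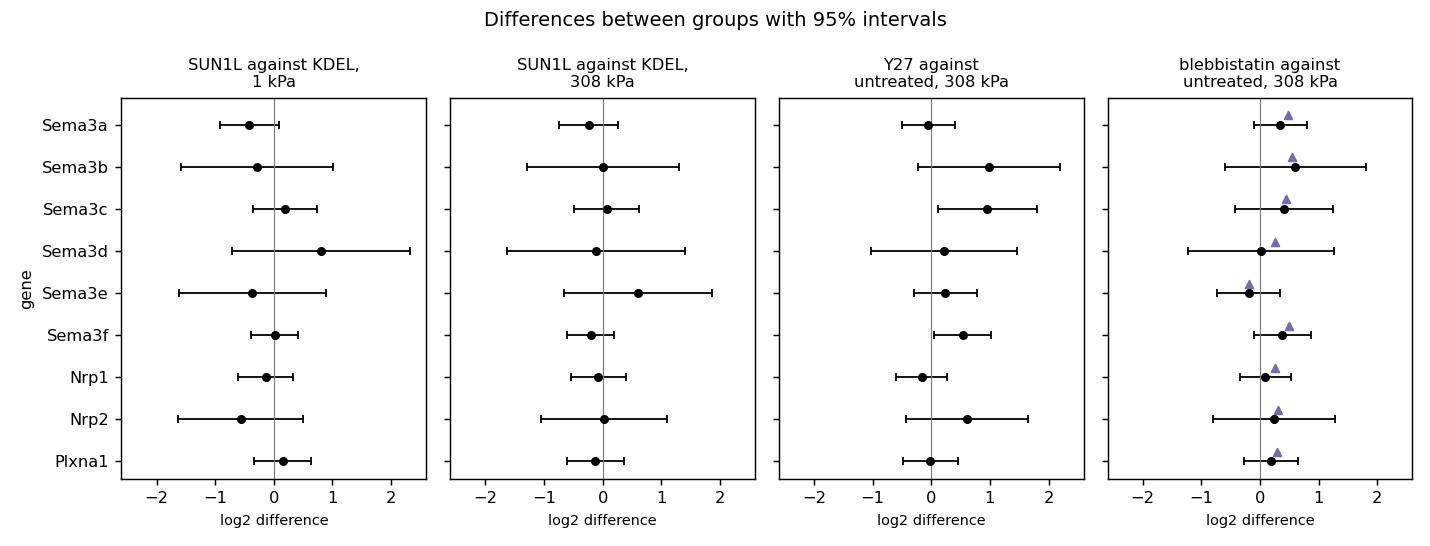
Log2 differences (x axis) of 9 members (Sema3g left out) in 4 comparisons, with 95% limma intervals, and triangles for the values without library 34. Apart from Sema3c and Sema3f with Y27, every interval includes 0.

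Set directly beside each other, Y27 and blebbistatin differed in 1 member by group: Nrp2 was higher in every Y27 library (13737, 13662 and 11899) than in any blebbistatin library (11243, 10010 and 9085). Its log2 difference of 0.38 had an SE of 0.45 and an unadjusted limma p of 0.427, and groups without overlap were found for 9.64% of all tested genes. Sema3a (-0.40 ± 0.20), Nrp1 (-0.25 ± 0.19) and Sema3c (0.55 ± 0.36) overlapped. Without library 34 these log2 differences were 0.30, -0.54, -0.42 and 0.51. The unadjusted limma p of Sema3a was 0.0779 with library 34 and 0.0367 without it. In the fit without it 2.32% of all genes were under 0.05 and 0% were called. The inhibitors were used at different concentrations. With all libraries 0% of all genes were called, and 2.83% had an unadjusted p under 0.05. With the block on runs, the unadjusted limma p was 0.0258 for Nrp1 and 0.0493 for Sema3c, both with an adjusted p of 0.885, and 5.17% of all genes were under 0.05.

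Disruption of the LINC complex was compared on the stiff substrate, and 5 of the expressed members lay close to their KDEL levels there. Nrp1 had 7060, 5660 and 4881 in SUN1L cells (log2 difference -0.07, 95% interval -0.54 to 0.40), and Plxna1 had 14995, 12417 and 9940 (-0.13, -0.61 to 0.36). Sema3f had 2882, 2432 and 2228 (-0.20, -0.60 to 0.19), and it was lower in each run, with ratios of 0.807, 0.878 and 0.922. Sema3a had 1791, 2959 and 2593 (-0.24, -0.75 to 0.27) and Sema3c had 2608, 2551 and 1756 (0.07, -0.48 to 0.62). The intervals exclude a 2-fold difference for each of these 5 genes.

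Nrp2 and Sema3b were less well determined on 308 kPa. Nrp2 had 6379, 12006 and 8659 in SUN1L cells, a log2 difference of 0.03 with a 95% interval of -1.04 to 1.09, and Sema3b had 201, 563 and 431, a log2 difference of 0.01 (-1.29 to 1.30). Without library 8 alone these became -0.54 and -0.63, and without libraries 3, 7 and 8 they were -0.31 and -0.20. 0 of the 10 members was called, beside 0.0624% of all tested genes, and 0 of the 9 other than Sema3g had an unadjusted limma p under 0.05 (2.53% of all genes did). With the block on runs, Sema3f had an unadjusted limma p of 0.0232 and an adjusted p of 0.772, and 5.92% of all genes were under 0.05.

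On 1 kPa the contrast of the lines can be read for all 10 members. Sema3a had 3521, 2636 and 2825 in KDEL cells and 1593, 2601 and 2657 in SUN1L cells, a log2 difference of -0.42 ± 0.23 (SE, 95% interval -0.93 to 0.09), and the lowest value was in library 3. Nrp2 had 11361, 15032 and 12310 against 5095, 10804 and 11835, a log2 difference of -0.56 ± 0.48 (SE). Without library 3, the only one of libraries 3, 7 and 8 in this contrast, both differences were -0.18. Nrp1 (-0.14, -0.60 to 0.33) and Plxna1 (0.15, -0.33 to 0.63) were closer. 0 of the 10 was called, beside 0.0874% of all tested genes, and 0 had an unadjusted p under 0.05, beside 4.54% of all genes.

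Rigidity was compared within each line, where 0% of all genes and 0 of the members were called by limma. At an unadjusted p under 0.05 were 1.37% of all genes in KDEL cells and 1.93% in SUN1L cells, and 0 of the 9 members other than Sema3g in either. In KDEL cells Sema3b was 469, 773 and 473 on 1 kPa and 151, 716 and 446 on 308 kPa, a log2 difference of -0.61 ± 0.59 (SE), and it was 0.02 without library 8. With the block on runs its unadjusted limma p was 0.0436 and its adjusted p 0.781, and 5.37% of all genes were under 0.05. Nrp2 differed by -0.58 ± 0.48 and Sema3c by 0.28 ± 0.25 (SE) on the log2 scale, and by -0.02 and 0.01 without library 8. In SUN1L cells Sema3f was 3545, 3011 and 2782 on 1 kPa and 2882, 2432 and 2228 on 308 kPa, a log2 difference of -0.31 ± 0.18 (SE), with ratios of 0.813, 0.808 and 0.801 within the runs. Plxna1 differed by -0.33 ± 0.22 (SE) in these cells, with ratios of 0.865, 0.827 and 0.703. With the block on runs the unadjusted limma p was 0.00245 for Sema3f and 0.00671 for Plxna1, and the smallest adjusted p among the members was 0.833 (5.52% of all genes passed 0.05 unadjusted in that fit). The interaction of SUN1L and rigidity ran from -0.92 for Sema3d to 0.97 for Sema3e over the 9 members other than Sema3g, with 0 called and 0% of all genes called (0.905% at an unadjusted p under 0.05).

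Nrp2 and Sema3b also separated 3 libraries of different groups from the rest. Nrp2 was 3935 to 6379 in libraries 3, 7 and 8 and 8659 to 16922 in the other 15, and Sema3b was 151 to 266 against 431 to 922, so that both genes were lower in those 3 libraries than in any other. The share of all tested genes lower in this way was not counted, so the separation is not shown to be particular to these genes. Nrp1 (6471 to 7060 in the 3 libraries) and Sema3f (2882 to 3570) lay within the range of the others. Over the 18 libraries the Pearson r with the mean of the 12 mitosis genes was 0.80 for Nrp2 and 0.79 for Sema3b, while the Spearman coefficient was 0.17 and 0.25, so these values rest on the 3 libraries. Other members also varied with the mitosis genes. Pearson and Spearman values were -0.53 and -0.66 for Plxna1, -0.55 and -0.66 for Sema3d, and 0.65 and 0.38 for Sema3a. The remaining members had a Pearson r from -0.39 (Nrp1) to 0.03 (Sema3e). Between members, r was highest at 0.87 for Nrp2 and Sema3b, 0.78 for Nrp1 and Plxna1 and 0.75 for Sema3c and Sema3f. The r of Nrp2 and Sema3b includes libraries 3, 7 and 8, where both were lowest. The lowest r was -0.62, for Plxna1 and the barely detected Sema3e. These correlations are descriptions, over libraries that share their scaling.

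**Figure D5:**
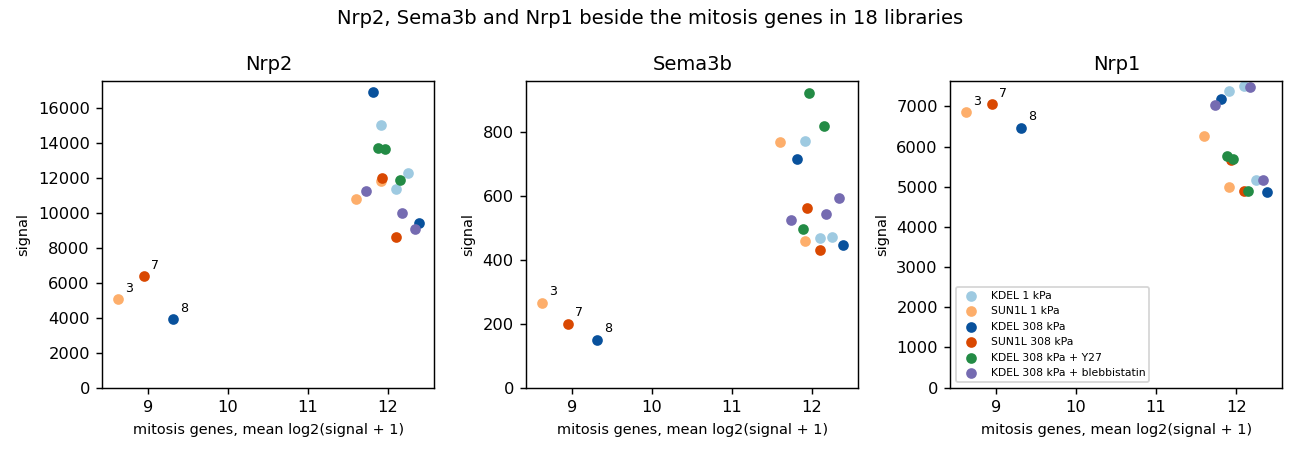
Signal of Nrp2, Sema3b and Nrp1 (y axis, from 0) against the mean log2(signal + 1) of 12 mitosis genes (x axis), 1 point per library, coloured by group. Libraries 3, 7 and 8 lie apart on the x axis and lowest for Nrp2 and Sema3b, but not for Nrp1.

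The wider pathway was read from 6 lists with 58 genes, of which 53 were tested (54 entries, since Mical3 has 2 identifiers). 0 of them was called in any of the 8 comparisons. At an unadjusted p under 0.05, 9.26% of the entries passed with Y27 (3 higher and 2 lower) and 1.85% with blebbistatin (1 higher), beside 6.05% and 4.21% of all tested genes. On 308 kPa SUN1L gave 1 lower entry (1.85%, beside 2.53% of all tested genes) and on 1 kPa it gave 5 higher (9.26%, beside 4.54%). Between 308 and 1 kPa 7.41% passed in KDEL cells (2 higher and 2 lower, beside 1.37%). In SUN1L cells it was 7.41% as well (1 higher and 3 lower, beside 1.93%). Between Y27 and blebbistatin 7.41% passed (1 higher and 3 lower, beside 2.83%), and for the interaction 1.85% (1 lower, beside 0.905%).

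Among the plexins, Plxnb2 (mean signal 11065), Plxna2 (5037) and Plxnd1 (3103) were highest, and Plxnc1, the receptor of Sema7a, was at 1.00 to 7.12. Plxnc1 differed by 1.51 ± 0.48 (SE, log2) between 308 and 1 kPa in SUN1L cells and by -1.50 between Y27 and blebbistatin, or -1.29 without library 34. Of the transmembrane and membrane-anchored semaphorins, Sema5a (763), Sema4b (676) and Sema6b (631) led, and Sema7a differed by -1.18 ± 0.51 (SE, log2) between 308 and 1 kPa in KDEL cells. The adhesion molecules that pair with neuropilins were led by Alcam (2171), L1cam (42.1) and Nrcam (12.2). Nrcam, at 1.76 to 29.6, had a log2 difference of 1.72 ± 0.53 (SE) with SUN1L on 1 kPa. It differed by 1.41 ± 0.53 between 308 and 1 kPa in KDEL cells and by -1.72 ± 0.57 with Y27. The adjusted limma p was 0.717 or more in the 3 comparisons, which share untreated KDEL libraries.

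VEGF family genes shared with neuropilins were led by Vegfa (2739), Vegfb (1178) and Figf (716), and placental growth factor Pgf, at 1.00 to 32.3, differed by 1.48 (log2) with SUN1L on 1 kPa. Of the effectors, Cfl1 (34896), the actin-severing cofilin, Rac1 (12065) and Dpysl3 (6518) were highest. Dpysl5, at 1.00 to 4.67, differed by 1.07 (log2) with SUN1L on 1 kPa. Furin (2569) and Pcsk7 (821) were the expressed convertases, and Pcsk6 was at 1.00 to 2.33. None of these values passed the adjusted test.

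Markers of other cell types were read beside the members. The summed signal of the 5 endothelial markers was 394 to 750 in untreated KDEL cells on 308 kPa, 1085 to 3991 with Y27 and 358 to 1554 with blebbistatin. With Y27, 2 of the 5 were higher (Tek and Pecam1) and 3 lower (Cdh5, Tie1 and Vwf), with a median log2 difference of -0.005, so that the sum follows Tek. Tek, the angiopoietin receptor, had a signal of 682, 244 and 125 without inhibitor and 3928, 2589 and 779 with Y27, and the groups did not overlap, as for 8.57% of all tested genes. Its log2 difference was 2.85 ± 0.98 (SE), with an adjusted p of 0.741 in limma. Pecam1 and Cdh5 had means of 39.7 and 94.3 over the 18 libraries. Vwf differed by 1.62 and Tie1 by -1.82 (log2) with SUN1L on 1 kPa, and Vwf by 1.06 between 308 and 1 kPa in KDEL cells. None of these differences was called. Both genes were low, with a signal of 1.00 to 14.0 for Tie1 and 5.37 to 50.3 for Vwf over the 18 libraries. The macrophage marker Csf1r differed by 1.75 (log2) with SUN1L on 308 kPa and did not pass the test, and Emr1 was at or near the lowest value. The part of these cell type markers in the values of the semaphorins was not tested.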

How the data were processed

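RNA-seq of poly-A RNA was analysed in 18 libraries. The authors ran FastQC, aligned paired-end reads with TopHat 2.0 to mm9, took metrics with SAMtools, and filtered reads and scaled counts with TMM in AvadisNGS. The deposited signal is a linear, normalized value for each gene in each library, and its minimum is 1. Its gene positions are those of GRCm38. Of the values under 20 times the step of 1 read pair, only 50.3% to 53.6% lay within 0.1 of a whole multiple, so whole reads were not recovered and read pairs are estimates. Genes above 1 in at least 3 libraries (16021 of 22019) were tested with limma 3.58.1 in R 4.3.3 on log2(signal + 1), two-sided, in fits of 12 libraries (KDEL and SUN1L on both gels) and 9 libraries (KDEL on 308 kPa, untreated, Y27 and blebbistatin). This scale understates the change of low genes. A call needed at least 2-fold and a p under 0.05 after Benjamini-Hochberg adjustment. The members and gene lists were chosen with earlier results of these data known. Named genes were the members, Sun1, the 3 highest of each other list of the pathway or called genes, those at an unadjusted p under 0.05 with at least 2-fold, and the 3 genes most like Sema3g. Libraries of the same run of serial numbers deviated together from their group means (correlations of 0.10 to 0.67), a pairing the data give and the labels do not. Exon lengths came from GENCODE vM1.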

Additional observations from a re-analysis of the deposited data

Results flagged for a closer look

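Crmp1, which encodes a collapsin response mediator protein of the semaphorin signalling chain, had SUN1L differences of opposite direction on the 2 substrates, and this is what singled it out. On 1 kPa its signal was 1.00 in all 3 KDEL libraries and 3.06, 1.70 and 1.95 in the SUN1L libraries. On 308 kPa it was 2.34, 1.97 and 2.72 in KDEL cells and 1.00 in all 3 SUN1L libraries. Every SUN1L library was thus above every KDEL library on the soft gel and below every one on the stiff gel, as were 6.65% and 2.33% of all tested genes in the respective comparison. The interaction of SUN1L and rigidity was -1.41 ± 0.30 (SE, log2), with an unadjusted limma p of 0.000735 and an adjusted p of 1.00, so it did not pass the test. Crmp1 was singled out on these same values, so the p is a description only. The share of all tested genes with both patterns was not counted. The gene was at an estimated 0 to 1.39 read pairs in each of these 12 libraries.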

How the results depend on the processing

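Of the 80 log2 differences of members (10 genes in 8 comparisons), the 38 given by value were followed through the alternatives, and no call among these changed: filter, pseudocount of 8, quantile normalization, all 18 libraries in 1 fit, variance trend, call rule, replicate block, z-test of proportions, or leaving out libraries. Of 396 values of these 38 under alternatives other than leaving out 1 library, 388 kept their direction and side of the threshold and 8 reversed, and of 402 values with 1 library left out, 381 did and 21 reversed. The replicate block on the runs gave 17 called genes for SUN1L on 1 kPa (14 without it) and 12 on 308 kPa (10), and 0 in the other comparisons, and it called 0 of the 80 differences of members. The z-test, which ignores the spread between replicates, called 691 and 401 genes for SUN1L on 1 and 308 kPa, 331 and 225 for rigidity in KDEL and SUN1L cells, 601 for Y27, 579 for blebbistatin and 289 between inhibitors. It gave -0.14 for Sema3b and -0.16 for Nrp2 with SUN1L on 308 kPa. Without the low-value filter 1 gene was called with blebbistatin, and the cause was not tested.

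Without libraries 3, 7 and 8, an alternative chosen after seeing the data, called genes numbered 7 and 5 for SUN1L on 1 and 308 kPa, 1 for rigidity in SUN1L cells, 1 for the interaction, 2 for Y27 and 2 for blebbistatin. There SUN1L on 308 kPa gave -0.20 for Sema3b and -0.31 for Nrp2, rigidity in KDEL cells 0.02 for Sema3b, Y27 0.16 for Plxna1, and blebbistatin -0.03 for Sema3b and -0.33 for Nrp2. Leaving out each library in turn gave 8 to 15 called genes for SUN1L on 1 kPa (8 without KDEL replicate 1), 0 to 2 for Y27 and for blebbistatin (2 without library 8) and 0 to 1 between inhibitors. The ranges for SUN1L on 308 kPa were -0.63 to 0.49 (Sema3b), -0.19 to 0.35 (Sema3c), -0.23 to 0.05 (Nrp1), -0.54 to 0.52 (Nrp2) and -0.31 to 0.05 (Plxna1). They were -1.10 to 0.02 for Sema3b with rigidity in KDEL cells, -0.21 to 0.06 (Sema3a) and -0.20 to 0.16 (Plxna1) with Y27, and -0.03 to 1.09 (Sema3b), -0.07 to 0.25 (Nrp1) and -0.33 to 0.72 (Nrp2) with blebbistatin. Sema3e, Sema3g and Sema3d rested on an estimated 11, 16.2 and 152 read pairs over the 18 libraries, which limits what can be said of them.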
